A study of Homo sapiens with 9 samples.

Results

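The empty-vector controls of U937, a human myeloid cell line derived from a histiocytic lymphoma, are described here by their signal levels. They were 2 of the 9 arrays of the series, the libraries labelled shEMPTY replicates 1 and 3, and were chosen by the levels of a pair of transcripts: a DEK intensity above 1000 and no detection of IFNB1, the gene of interferon beta. All 9 libraries were total RNA of U937 cells transduced with an H1 lentiviral vector that also carried GFP, and the groups of 3 differed in the insert: a short hairpin RNA (shRNA) against DEK in shDEK14, another one in shDEK17 and none in shEMPTY. All cells were grown in RPMI medium with 10% serum, sorted for GFP at 48 h and harvested after another 4 days. They were therefore virus-transduced, sorted cells of 1 established line and not untouched U937, and the labels number the replicates of every group as experiments 1 to 3 but do not say whether these were separate transductions.

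U937 cells resemble cells on the way from the granulocyte and monocyte progenitor to the monocyte. In that lineage the transcription factor PU.1, encoded by SPI1, and C/EBP alpha, encoded by CEBPA, switch on receptors for colony-stimulating factors and the proteases and peroxidase that are packed into primary granules. Granule genes are transcribed mainly at the promyelocyte stage, while CD14, Toll-like receptors and chemoattractant receptors mark the mature monocyte. Lymphoid, erythroid and megakaryocytic markers belong to other branches of the haematopoietic tree.

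The libraries were read on HumanHT-12 v4 bead arrays, which measure the brightness of 47323 probes. Levels are given as scaled intensities, which are bead intensities multiplied by 1 factor per array (0.931 and 1.06 for the controls) so that each array had a mean of 406.2, and as the mean log2 of that value ± SD over the 2 arrays. A probe was called detected when its detection p against the negative control beads of its array was under 0.01 on both arrays, and a gene when any of its probes was. The signal scale starts well above 0: undetected probes had a median of 107.2 and 106.7, and the dimmest detected probes stood at 144.4 and 144.9. Pairs of values are scaled intensities of replicate 1 and then of replicate 3. A gene is given by its brightest detected probe and by the percentile of that signal among all detected genes. Probes differ in how brightly they bind, so the percentile places a probe signal within these arrays and does not measure transcript number. In RNA of a whole culture, fewer cells that express a gene and less RNA per cell cannot be told apart.

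DEK, a nuclear protein of chromatin, had an intensity before scaling of 2510 and 2580 on the 2 arrays. IFNB1 was not detected, with 105.5 and 76.4. These values chose the arrays and are given as a description. The library labelled shEMPTY replicate 2 did not meet the rule, with a DEK intensity of 293.9 and an IFNB1 intensity of 224.7. DEK also went against the labels in 3 other libraries: shDEK14 replicate 1 read 2360, shDEK14 replicate 3 read 2826 and shDEK17 replicate 2 read 1890. The remaining 3 libraries labelled shDEK ranged from 359.4 to 532.0.

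Of 20046 genes with a named probe, 7852 (39.2%) were detected on both control arrays. Among protein-coding genes the share was 42.6% (7572 of 17777), against 9.77% of 798 long non-coding RNAs and 23.1% of 528 transcribed pseudogenes. Replicate 1 detected 8328 genes and replicate 3 detected 8272, and 11306 genes were detected on neither. Mean log2 levels of detected genes ran from 7.19 to 14.50 with a median of 8.71, and the brightest 10% (785 genes) held 54.8% and 54.0% of the summed signal of all detected genes on the 2 arrays.

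The brightest genes were those of protein synthesis. EEF1A1, the elongation factor that brings charged tRNA to the ribosome, ranked first at 24185 and 22254 (mean log2 14.50 ± 0.085). Ribosomal proteins filled 10 of the first 20 places, namely RPS29, RPL41, RPLP1, RPL32, RPS6, RPL9, RPLP2, RPS20, RPS15 and RPS19. RPS29 stood at 22653 and 23497, and RPL41 at 22745 and 20295. TMSB4X, which binds actin monomers, stood at 22957 and 18451. SLC25A5, a carrier that exchanges ADP and ATP across the inner mitochondrial membrane, stood at 19029 and 19907. H4C3, a histone H4 gene, ranked 20th at 18105 and 19269. Another 4 places were held by probes named for pseudogenes (TUBA3FP, RPL13AP5, ANXA2P2 and SLC7A5P2), whose sequences resemble those of expressed parent genes.

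The rank of a bright gene often rested on 1 of several probes. Of the 14 genes among the first 20 with more than 1 probe, 9 had probes whose mean signals lay over 16-fold apart. RPL32 ranked 5th by a probe at 21820.0 and 19928, while its other 3 probes, all detected, lay between 159.2 and 262.3. LAIR1, an inhibitory receptor of leukocytes, ranked 10th at 22362 and 17875 by one probe and read 169.1 and 194.1 by its other. F2R, the thrombin receptor, read 21028 and 17543 by one probe and 171.1 and 159.0 by its other. TUBA3FP and TMSB4X each had a further probe that was not detected. Over all genes with several probes, 3261 were detected and 1921 of them (58.9%) had at least 1 probe that was not. Within the 1905 genes with at least 2 detected probes, the probes of a gene spanned a median of 0.91 on the log2 scale. For this reason the number of probes detected is given beside markers of which some probes were not.

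**Figure D1:**
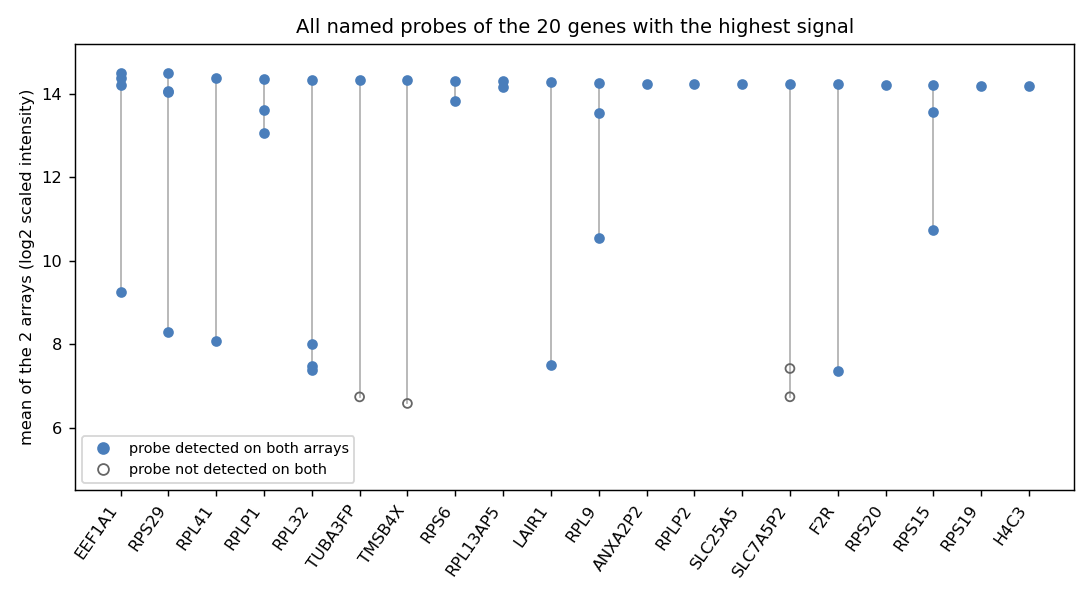
Mean log2 scaled intensity over the 2 control arrays (y axis) of every named probe of the 20 genes with the highest signal (x axis, by rank). Each point is a probe, filled if detected on both arrays, and a grey line joins the probes of a gene. The brightest probes all lie above 14, while RPL32, TUBA3FP, TMSB4X, LAIR1, SLC7A5P2 and F2R each have another probe below 8.

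Of the marker genes, the myeloid ones were detected most often among the lineages, at 66 of 146 genes with a probe (45.2%). The count for progenitor markers was 8 of 22 (36.4%), for erythroid and megakaryocytic markers 4 of 29 (13.8%), for lymphoid markers 7 of 52 (13.5%) and for markers of other tissues 4 of 43 (9.30%). These shares stand beside 39.2% over all genes, 42.6% over protein-coding genes, to which the myeloid share was close, and 95.9% (278 of 290) for genes of core cell functions. The lists were assembled with earlier results of these data known, so their counts are a description. Of the 4 genes that mark the line, SPI1, CSF3R and CTSG were detected, and CD33 had no named probe and was not analysed here.

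**Figure D2:**
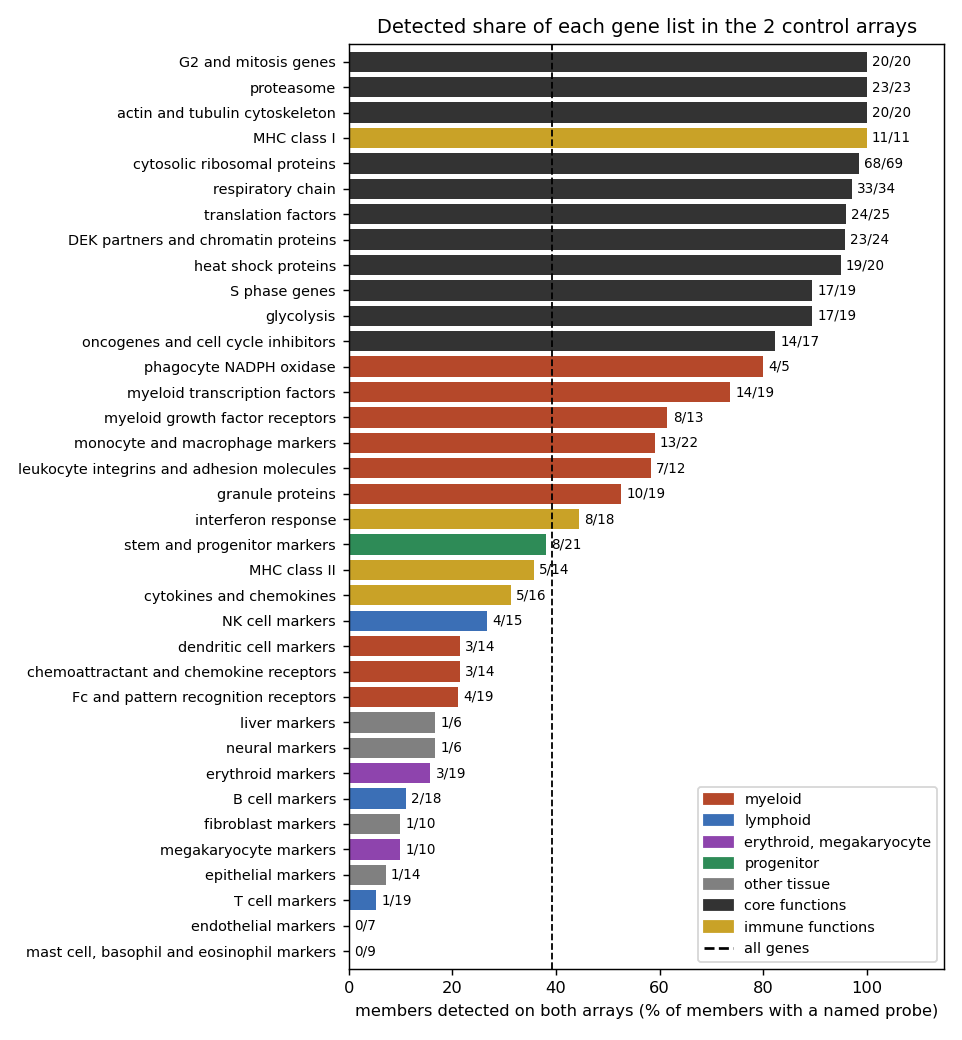
Percent of members detected on both control arrays (x axis) for each gene list with at least 3 members on the array (y axis), with the count at the end of each bar and bars coloured by class. The dashed line is the share over all genes, 39.2%. Core lists lie above 80%, 6 myeloid lists lie above the line, and lymphoid, erythroid and other tissue lists lie below it.

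Among myeloid transcription factors, 14 of 19 were detected, with a median percentile of 78.8. SPI1 gave 970.3 and 930.4 (mean log2 9.89 ± 0.043, percentile 75.3), with both of its probes detected. CEBPA gave 2267 and 2326 (mean log2 11.16 ± 0.026, percentile 90.2). For both master regulators the arrays nearly coincided. MYB, a factor of proliferating progenitors that falls as myeloid cells mature, had the highest signal of the list at 3533 and 4044 (percentile 94.5). CEBPB, which takes part in macrophage differentiation, gave 1482 and 1757 (percentile 85.6). FLI1, an ETS factor, gave 1476 and 1422. GFI1, a repressor that favours the granulocytic branch, gave 1165 and 1547, and IRF8, which favours the monocytic branch, gave 1237 and 995. Thus factors of both branches were detected together. RUNX1, a core haematopoietic factor, was detected by 1 of 3 probes at 378 and 319. CEBPD, CEBPE, KLF2, KLF4 and NFE2 were not detected, and CEBPE and KLF4 mark later granulocytes and monocytes. KLF2 was near the limit, at 129.9 and 143.

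Granule proteins fell into detected and undetected members. MPO, the myeloperoxidase of primary granules, gave 6522 and 6205 (mean log2 12.63 ± 0.051, percentile 97.3). RNASE2, a ribonuclease of eosinophil granules that monocytes also make, gave 4062 and 6239 (mean log2 12.30 ± 0.44, percentile 96.3). SRGN, the proteoglycan that holds granule proteins, gave 3204 and 4114. All 3 stood among the brightest 10%. CTSG, cathepsin G, gave 918 and 541 (mean log2 9.46 ± 0.54, percentile 67.3), with a difference between the arrays beyond the 95th percentile of all detected genes (0.51 on the log2 scale). Of the other serine protease family members of the same granules, ELANE, neutrophil elastase, was not detected, at 129 and 116, and PRTN3, proteinase 3, was not detected, at 134 and 124. AZU1, azurocidin, was just above the limit at 166 and 149.6. These calls varied over the series: of the other 7 arrays, ELANE was detected on 3, PRTN3 on 4 and AZU1 on 2. CST3, a cysteine protease inhibitor, gave 2939 and 1999, and SERPINB1, an inhibitor of those serine proteases, gave 1172 and 1205. The arrays also differed by more than 0.51 for RNASE2 (0.619 on the log2 scale, replicate 3 minus replicate 1) and CST3 (-0.556). Markers of other lists did so too, among them IL7R, IFI44 and CD34. LYZ, lysozyme, was detected by 1 of 2 probes at 315 and 294. The proteins of secondary and tertiary granules on the list, LTF, CAMP, LCN2, MMP8 and MMP9, were not detected. In all, 10 of 19 granule genes were detected.

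Promoter windows are shown for the protease and the receptor that mark the line, and for CD14, a monocyte marker with a window of the same kind that was not detected. The sequences are those of RefSeq on GRCh38.p14, from 250 bases before to 50 after the annotated start and are written 5′ to 3′ along the gene, which lies on the minus strand in all 3 cases. Capitals mark GAGGAA, a core that PU.1 binds, or its reverse complement TTCCTC, searched on both strands. The windows lie at chr14:24576201-24576500 for CTSG, chr1:36482864-36483163 for CSF3R and chr5:140633126-140633425 for CD14.
CTSG: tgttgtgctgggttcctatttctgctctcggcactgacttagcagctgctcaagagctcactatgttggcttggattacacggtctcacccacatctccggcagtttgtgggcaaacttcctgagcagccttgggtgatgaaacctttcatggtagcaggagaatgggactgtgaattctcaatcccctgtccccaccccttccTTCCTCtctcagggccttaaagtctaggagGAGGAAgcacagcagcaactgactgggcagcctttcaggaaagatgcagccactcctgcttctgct
CSF3R: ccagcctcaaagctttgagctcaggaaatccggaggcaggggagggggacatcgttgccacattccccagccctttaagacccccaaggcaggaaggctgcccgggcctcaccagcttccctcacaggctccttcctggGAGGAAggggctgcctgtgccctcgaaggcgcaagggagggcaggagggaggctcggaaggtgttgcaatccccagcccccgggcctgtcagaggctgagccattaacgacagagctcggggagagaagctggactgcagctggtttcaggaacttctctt
CD14: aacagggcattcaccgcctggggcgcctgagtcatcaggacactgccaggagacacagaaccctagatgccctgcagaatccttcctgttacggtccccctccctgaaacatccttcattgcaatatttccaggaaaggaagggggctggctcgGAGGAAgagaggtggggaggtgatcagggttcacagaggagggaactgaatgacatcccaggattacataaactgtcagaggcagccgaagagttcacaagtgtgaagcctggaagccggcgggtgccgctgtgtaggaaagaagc
The CTSG window held 2 matches and the CSF3R and CD14 windows 1 each, and a second CSF3R window held none. At least 1 match was present in 31.8% of the 27305 genes with a window and in 33.4% of the detected protein-coding genes with one (6465 of 7572). The letters were thus common in both sets, and they are a description of the windows, not binding sites. The whole table includes non-coding genes. The windows of detected protein-coding genes had a median GC content of 64.7% and a median ratio of observed to expected CpG of 0.846. Of the undetected protein-coding genes 78.2% had a window, which is below the minimum set for a comparison, so none was made.

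Of the monocyte and macrophage markers, 13 of 22 were detected. LILRB1, an inhibitory receptor for MHC class I, had the highest signal at 4625 and 4295 (percentile 95.7), by 1 of 2 probes. AIF1, an actin-binding protein of macrophages, gave 3355 and 5026 with 2 of 2 probes, and CD93, a receptor of monocytes and early progenitors, gave 3726 and 3581. CD36, a scavenger receptor, gave 924 and 1051 by 2 of 3 probes. CD68, a lysosomal protein of macrophages, gave 632 and 498 by 2 of 3. The defining markers of the mature monocyte were low or absent. CD14, the receptor that hands lipopolysaccharide to TLR4, was not detected by either of its probes, and the brighter read 109.9 and 128. ITGAM, the alpha chain of the CD11b integrin, was detected at 265 and 256 (percentile 31.2). S100A9, a calcium-binding protein abundant in monocytes, was near the limit at 185 and 169, and its partner S100A8 was not detected. CD163, MRC1 and MSR1, receptors of macrophages, were not detected by any probe.

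Receptors for the colony-stimulating factors were detected at different levels. CSF3R, the receptor for G-CSF, gave 1159 and 834 (mean log2 9.94 ± 0.34, percentile 76.0), by 1 of 2 probes. The other CSF3R probe was not detected, at 132.6 and 130.9. CSF2RA, the alpha chain for GM-CSF, gave 2302 and 2285 (percentile 90.2), with 3 of 4 probes detected. CSF1R, the receptor for M-CSF, was low at 226 and 181 (percentile 18.1). The common beta chain CSF2RB, through which GM-CSF and IL-3 signal, was not detected, at 130.1 and 111, nor were the IL-3 receptor IL3RA, FLT3 and KIT. IFNGR1 and IFNGR2, the chains for interferon gamma, were both detected, at 896 and 996 and at 1402 and 1427. TNFRSF1A, a receptor for TNF, gave 947 and 941. In all, 8 of 13 receptors of this list were detected.

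Receptors that sense microbes and antibodies were mostly off, with 4 of 19 detected and none above the 33.3 percentile. FCGR2A, a low-affinity receptor for IgG, gave 261 and 282 by 2 of 3 probes, and FCGR1A, the high-affinity one, gave 225 and 209. NLRP3, the sensor of an inflammasome, gave 263 and 239 by 2 of 3, and MYD88, the adaptor of most Toll-like receptors, gave 231 and 292. The 8 Toll-like receptors of the list, TLR1, TLR2, TLR4, TLR5, TLR6, TLR7, TLR8 and TLR9, were undetected on both arrays. TLR2 read 88.6 and 104 and TLR4 read 138 and 137. The chemoattractant receptors FPR1, C5AR1 and CCR2 were not detected either, and 3 of the 14 receptors of that list were. CX3CR1, the receptor for fractalkine, gave 825 and 707 by 1 of 2 probes, CXCR4, the receptor for CXCL12, gave 218 and 279 by 2 of 3, and LTB4R, the receptor for leukotriene B4, gave 199 and 202.

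Adhesion molecules and the oxidase that makes superoxide were largely present. ITGB2, the beta chain shared by the leukocyte integrins, gave 8636 and 6862 (mean log2 12.91 ± 0.23, percentile 97.8), while ITGAL, a partner chain, was not detected. ITGB1, another integrin beta chain, gave 2811 and 3648 by 2 of 4 probes, and CD44, the hyaluronan receptor, gave 2703 and 3568 by 2 of 3. In this list 7 of 12 genes were detected. Of the oxidase, 4 of 5 subunits with a probe were detected, led by RAC2, a small GTPase, at 3297 and 3307 and CYBA, the p22 subunit of the membrane, at 3258 and 2420.0. NCF4 gave 675 and 793 with 3 of 3 probes, and NCF1 gave 374 and 389.8. CYBB, the catalytic subunit, was the exception and was not detected, at 116 and 145.

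Markers of mast cells, basophils and eosinophils were detected in 0 of 9 cases, with TPSAB1 and IL5RA above the limit on replicate 1 alone. Of 14 dendritic cell markers 3 were detected, and the defining CD1C, CLEC9A and CLEC4C were not. TCF4, a factor of plasmacytoid dendritic cells that many other cells also use, gave 909 and 864, while FSCN1 and BATF3 were near the limit.

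**Figure D3:**
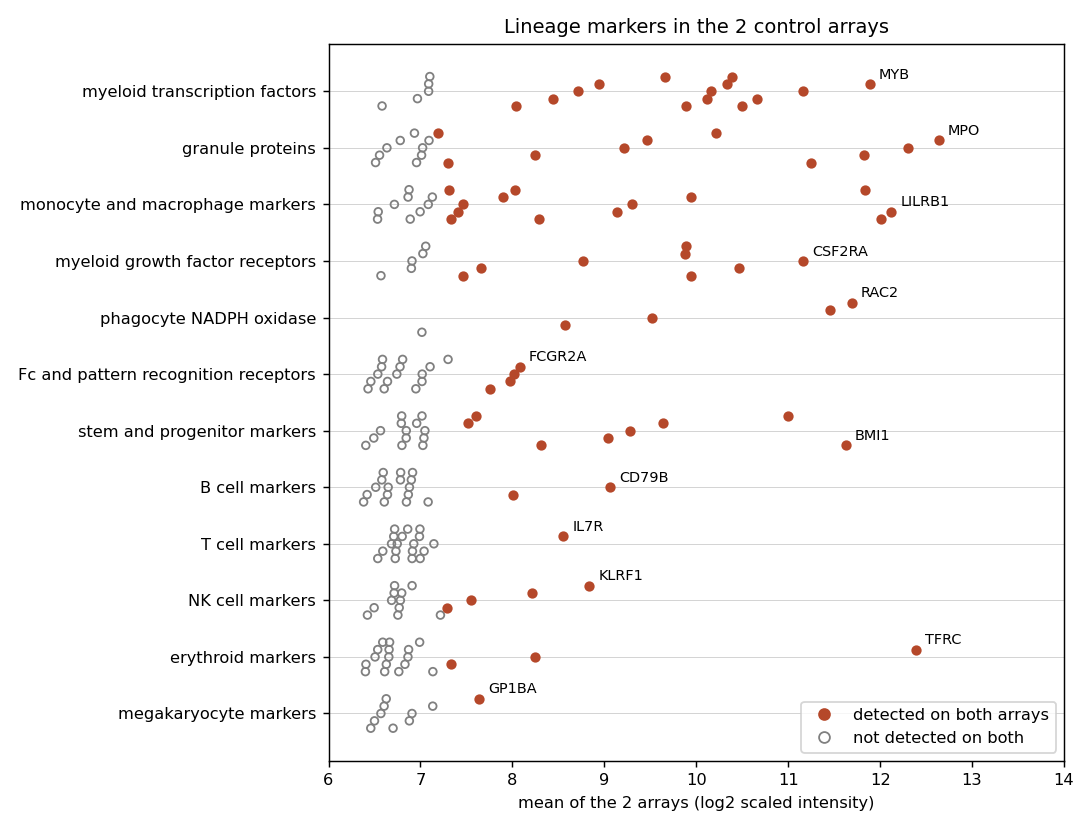
Mean log2 scaled intensity over the 2 control arrays (x axis) of each member of 12 marker lists (y axis). Filled points were detected on both arrays and open points were not, and the member with the highest mean is named. Myeloid lists other than the Fc and pattern recognition receptors reach values of 11 to 13, B, T and NK cell lists stay near or below 9, and TFRC stands alone among erythroid markers.

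Lymphoid markers were mostly at background. Of T cell markers 1 of 19 was detected, IL7R, the interleukin 7 receptor, at 302 and 467 with 2 of 2 probes. CD3D, CD3E, CD3G, CD8A and LCK, which define T cells, were all undetected, and LEF1, a factor of T cell development, was detected on replicate 1 alone. Of B cell markers 2 of 18 were detected, and both are chains of the B cell receptor's signalling dimer. CD79B gave 536 and 531 (mean log2 9.06 ± 0.010, percentile 58.4) with 3 of 3 probes, and CD79A gave 268 and 248 by 1 of 3. MS4A1, the gene of CD20, and PAX5, the factor that fixes B cell identity, were not detected. Of NK cell markers 4 of 15 were detected. KLRF1, an activating receptor, gave 462 and 452 with 2 of 2 probes, and NKG7, a protein of cytotoxic granules, gave 306 and 287. NCAM1, by 1 of 4 probes, and KLRB1 were low, and the cytotoxic effectors GNLY, PRF1, GZMA, GZMB and GZMK were not detected.

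Erythroid markers were mostly off, with 3 of 19 detected. TFRC, the transferrin receptor by which dividing cells take up iron, gave 4911 and 5835 (mean log2 12.39 ± 0.18, percentile 96.7). BLVRB, a biliverdin reductase, gave 345 and 267, and EPOR, the erythropoietin receptor, was near the limit at 147 and 176. None of the 7 globin genes with a probe was detected, and neither were the erythroid factors GATA1 and KLF1 or ALAS2, the erythroid enzyme of haem synthesis. Of 10 megakaryocyte markers only GP1BA was detected, at 201 and 198, and the defining ITGA2B, GP9 and PF4 were not, while PPBP was detected on replicate 1 alone.

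Of stem and progenitor markers, 8 of 21 (38.1%) were detected, near the 39.2% over all genes. BMI1, a Polycomb protein of self-renewing cells, gave 3427 and 2926 (percentile 93.1), and LMO2, a bridge protein of early haematopoietic factors, gave 2010.5 and 2086 (percentile 88.7). MEIS1, a partner of HOXA9, gave 659 and 967 (percentile 70.7), and SOX4 gave 568 and 684. CD34, the surface marker of progenitors, was detected by 1 of 5 probes, at 388 and 262 (mean log2 8.32 ± 0.40, percentile 39.9). The other 4 CD34 probes read between 89.6 and 158.1 and were not detected on both arrays. KIT, THY1, GATA2, TAL1, MECOM and ERG were not detected, and PROM1 and HLF were detected on replicate 1 alone. HOXA7, HOXA9 and HOXA10 had no named probe and were not analysed here.

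Antigen presentation was split between the classes. All 11 genes of the MHC class I list with a probe were detected, led by B2M, the light chain of class I, at 11457 and 12090.0 (percentile 98.9), and HLA-B at 2239 and 2168. Another probe was not detected for 5 of them, and 7 of the 11 were detected by most of their probes. PSMB8, a subunit of the immunoproteasome, gave 1166 and 963 by 3 of 4 probes, and TAP1, a peptide transporter, gave 606 and 540.4. Of 14 MHC class II genes 5 (35.7%) were detected, a share near the 39.2% over all genes. Among the 5, RFX5, RFXANK and RFXAP are the subunits of a factor found in most cells. HLA-DRA, the alpha chain of HLA-DR, gave 660.4 and 647 by 1 of 2 probes, and CD74, the chaperone of class II, gave 510.4 and 544 by 2 of 3. CIITA, the transactivator of class II, was not detected, at 112 and 96.9, nor were HLA-DPA1, HLA-DPB1 and HLA-DQB1. HLA-DRB1, HLA-DMA and HLA-DMB were detected on replicate 1 alone, on which 8 class II genes were detected. The HLA genes are close relatives and highly polymorphic, so the level of a single probe among them is uncertain.

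Secreted proteins were detected in 5 of 16 cases (31.25%), beside 39.2% over all genes. IL18, an interleukin stored as a precursor, gave 7987 and 7205 (mean log2 12.89 ± 0.11, percentile 97.7), and IL10, an anti-inflammatory interleukin, gave 3078 and 3689 by 1 of 2 probes. The chemokine CCL5 gave 1799 and 1729.5 with 2 of 2 probes, CCL2 gave 348 and 523 and CXCL8 gave 191 and 301. The inflammatory cytokines IL1B and TNF were detected on replicate 3 alone, at 137 and 172 and at 108 and 146. Of the 5 detected genes, CCL2, CXCL8 and IL10 read higher on replicate 3, and CCL5 and IL18 read higher on replicate 1.

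Genes of the interferon response were detected in 8 of 18 cases (44.4%), beside 39.2% over all genes, and most of the detected ones were low. IFNB1, whose lack of detection chose the arrays, is among the 18, and the same rule left out shEMPTY replicate 2. IFI6, an interferon-induced mitochondrial protein, gave 1036 and 1184, and IFI44 gave 414 and 696. ISG15, a ubiquitin-like modifier, gave 339 and 318, and IFIT1, which binds viral RNA, gave 177 and 207 by 1 of 2 probes. MX1 was not detected, at 129 and 132. The library labelled shEMPTY replicate 2, in which IFNB1 was detected, read 10758 for ISG15, 4783 for IFIT1, 8206 for IFI6 and 3311 for IFI44. The other 6 libraries ranged from 322.0 to 464.8 for ISG15 and from 893.2 to 1329 for IFI6. They ranged from 301.2 to 557.0 for IFI44 and from 140.2 to 199.2 for IFIT1. Control replicate 1 lay within these ranges. Control replicate 3 lay above them for IFI44 and IFIT1, just below for ISG15 and within for IFI6. On these genes both controls lay far below shEMPTY replicate 2.

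Markers of other tissues gave a view of how often an unrelated gene was called detected. Of 43 genes 4 were: MBP, a myelin protein gene that also has transcripts in haematopoietic cells, at 1190.0 and 1089.6 by 2 of 3 probes, the smooth muscle actin ACTA2 at 312 and 318, the epithelial factor ELF3 at 219.8 and 211 and ALB, the albumin gene, at 206 and 219 by 1 of 2 probes. The 2 defining markers of each tissue, among them EPCAM, CDH1, COL1A1, COL1A2, CDH5, KDR, RBFOX3 and SNAP25, were undetected except for ALB. In the opposite direction, the core lists held genes whose named probes stayed at background, some of them genes that growing cells need. RPL10, a ribosomal protein, was not detected by either of its probes, at 123 and 90.7, and NPM1, an abundant nucleolar protein, was not detected, at 105 and 114. CDC6, a licensing factor of DNA replication, was not detected either, at 123 and 114. All 10 undetected core genes were also undetected on the other 7 arrays. They include forms of other tissues, such as PFKM and ENO2, so the 10 are not a count of failed probes. An undetected marker thus means that its named probes were at background.

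Core functions filled the upper part of the range. Cytosolic ribosomal proteins were detected in 68 of 69 cases with a median percentile of 99.0, proteasome subunits in 23 of 23 (91.8) and subunits of the respiratory chain in 33 of 34 (94.9). Translation factors were detected in 24 of 25 cases (90.6), actin and tubulin genes in 20 of 20 (98.1) and heat shock proteins in 19 of 20 (94.97). Of glycolytic genes 17 of 19 were detected (91.6), led by GAPDH at 12946 and 11563 and ENO1 at 12477 and 9984, and the muscle and neuronal forms PFKM and ENO2 were not. The cells carried the transcripts of division: 17 of 19 S phase genes (90.8) and 20 of 20 genes of G2 and mitosis (80.5) were detected. MCM3, a subunit of the replicative helicase, gave 7222 and 6009.8, PCNA, the sliding clamp of DNA polymerase, gave 6176 and 6376 by 2 of 3 probes, and CDC20, an activator of the anaphase-promoting complex, gave 4299 and 3523. Of chromatin proteins and DEK partners 23 of 24 were detected (90.9), with H3-3A, a histone H3.3 gene, at 12183 and 13780.0, and DEK itself stood at 2337 and 2735 (mean log2 11.30 ± 0.16, percentile 91.1). Of oncogenes and cell cycle inhibitors 14 of 17 were detected (75.3), with the D-type cyclins CCND3 at 4201 and 3647 and CCND2 at 3900.0 and 3255, while MYCL, MDM2 and TERT were not.

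The 2 control arrays were close to each other. Over the 7852 detected genes the Pearson correlation of log2 values was 0.985 and the Spearman correlation 0.975, as a description across genes, which are not independent replicates. The median absolute difference was 0.16 on the log2 scale, the 95th percentile was 0.51, and the SD of a single array was 0.18. It was 0.11 in the dimmest 10% of genes, 0.22 just above the median signal and 0.18 in the brightest 10%. The intensities include background, which narrows log2 differences of dim genes, and these genes had to pass the limit on both arrays. The low SD of the dimmest 10% is therefore not a measure of their precision. Of all detected genes, 7412 (94.4%) differed by no more than 0.5. Among all 36 pairs of arrays in the series, compared over the 7116 genes detected on every array, the correlation of this pair was 0.983, the eighth highest within a range from 0.964 to 0.990, and their median absolute difference was the twelfth lowest. Replicate 1 correlated more closely with shDEK14 replicate 2 (0.987) and shDEK17 replicate 3 (0.986) than with the other control. Replicate 3 was about as close to shDEK14 replicate 2 (0.983) as to the other control.

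**Figure D4:**
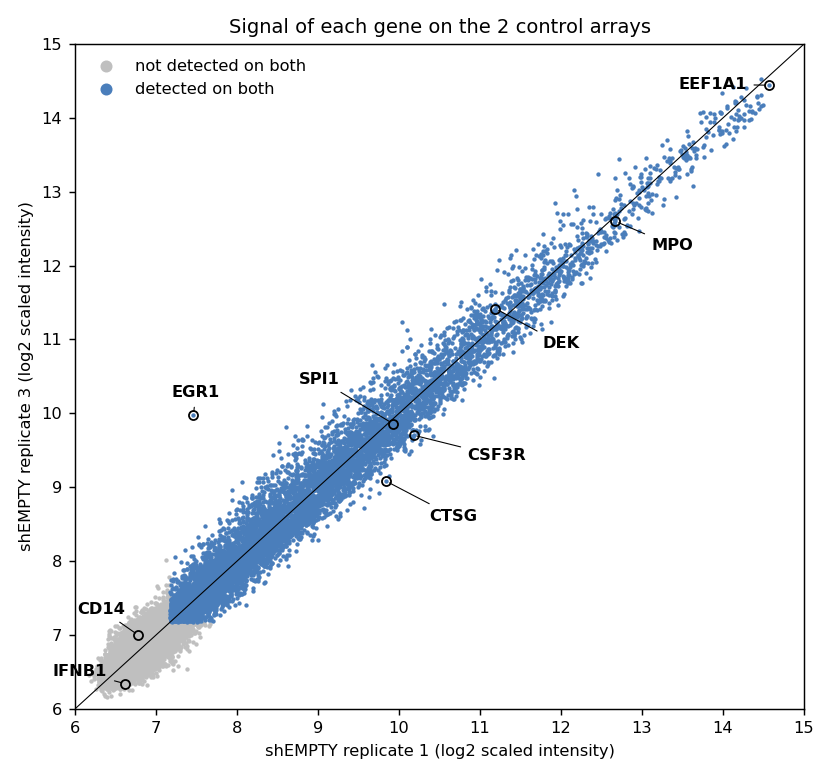
Log2 scaled intensity of each gene on shEMPTY replicate 1 (x axis) and replicate 3 (y axis), in blue where detected on both arrays and in grey otherwise, with the line of equal values. Most genes follow the line, SPI1, MPO and DEK lie close to it, CSF3R and CTSG lie below it, and EGR1 lies far above it.

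Where the arrays differed by more than 0.5, replicate 3 was higher for 355 genes and replicate 1 for 85. This split depended on the scaling. It was 292 against 140 after quantile normalization, 608 against 512 after neqc (a background correction with quantile normalization) and 122 against 682 before any scaling. With 1 array on each side these differences have no replicate check. EGR1, an immediate early gene that growth factors and stress induce within minutes, differed most, at 176 and 1007, which is 2.51 on the log2 scale (3.38 after neqc). EGR1 also read 932.4 in shDEK14 replicate 3 and 612.4 in shDEK17 replicate 1 and was between 168.2 and 186.5 in the other 5. The 8 genes that differed by over 2-fold in scaled intensity were all higher on replicate 3. They included HMGCS1, an enzyme of cholesterol synthesis, at 1048 and 2422, MRPL47, a mitochondrial ribosomal protein, at 389 and 905, and EIF4B, a translation initiation factor, at 1099 and 2236. COPS2, a subunit of the COP9 signalosome, and NPEPPS, an aminopeptidase, also belonged to them, as did FIGNL1 and STT3B, which were picked out after their values were seen. The other detected probe of MRPL47 read 388.5 and 530.7, and that of NPEPPS read 189.5 and 192.5. For MRPL47 and NPEPPS the gap over 2-fold was thus that of 1 probe. On the side of replicate 1 the scaled differences were smaller. FIS1, a protein of mitochondrial fission, gave 759 and 421, CDCA4 gave 859.8 and 483, and HSPA1B, a heat shock protein, gave 794 and 467. The genes over 2-fold depended on the scaling too. Before scaling FIS1 read 815.5 and 397.4 and CDCA4 923.5 and 455.7, over 2-fold. EIF4B then read 1180 and 2109, under 2-fold. CDCA4 had 2 of 3 probes detected, and the dimmer of these read 439.5 and 404.1, a smaller difference. CTSG, PSMD8 and ZYX followed. The cause of these differences was not tested.

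Detection on 1 array alone affected 880 genes, 468 on replicate 1 and 412 on replicate 3 (8 of the remaining undetected genes were seen on each array by a different probe). These lay near the limit. The widest gaps were those of IL2RB, a chain of the interleukin 2 receptor, at 167 and 92.9, and of IPO7, a nuclear import receptor, at 139.7 and 259. NXPE1 and C8orf74 followed on the side of replicate 1, and CARMIL1 and EPC1 on the side of replicate 3.

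Most of the baseline was shared with the whole series. Of the 7852 genes, 7140 (90.9%) were also detected on all of the other 7 arrays, and 10 were detected on none of them. Conversely 5 genes were detected on all of the other 7 arrays and on neither control array: KLF2, CRABP2, LINC00526, PGAP6 and SCARNA16, named after their values were seen. All of these lay close to the limit, with KLF2 at 129.9 and 143 here and between 151.9 and 174.3 elsewhere. Among the markers, SPI1 ranged from 782.5 to 1220 over the other 7 arrays, which took in the levels of both controls. CTSG was the most variable of the line's markers. Its level was 197.2, 1077 and 198.4 in replicates 1 to 3 of shDEK14, 745.8, 175.5 and 842.9 in those of shDEK17 and 1209 in shEMPTY replicate 2. The control levels of 918 and 541 fell within that range. CSF3R followed with a range from 345.9 to 1544, in which the controls stood at 1159 and 834. Not every marker lay within the range of the other arrays, as CSF2RA and CD79B show, picked after their values were seen. For CSF2RA both controls (2302 and 2285) lay below the range of 2477 to 3750. For CD79B both (536 and 531) lay above that of 346.8 to 510.3.

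**Figure D5:**
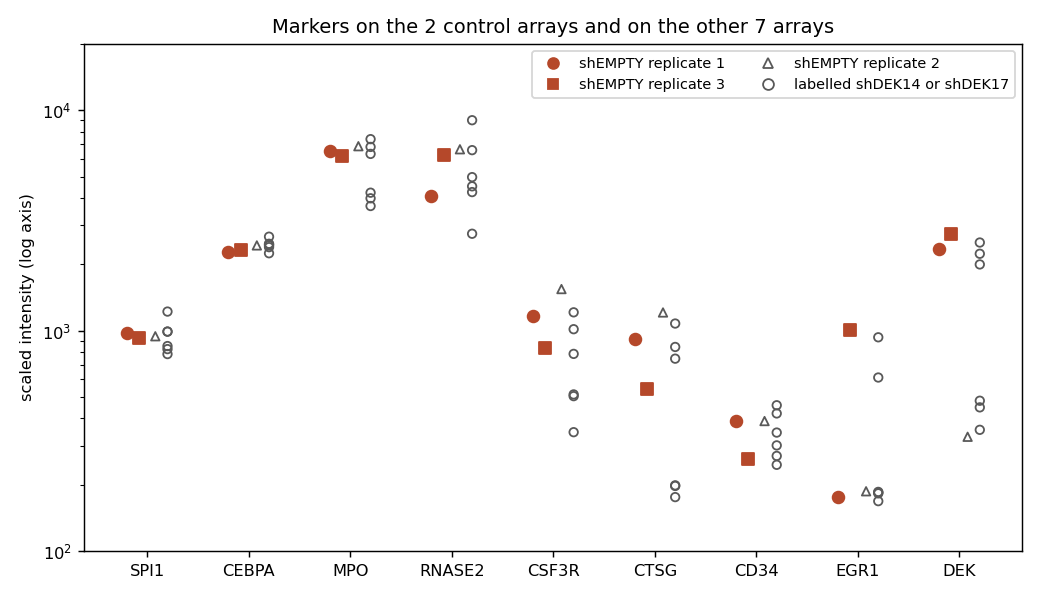
Scaled intensity (y axis, log scale) of 9 genes (x axis) on the 2 control arrays, in red, and on the other 7 arrays, in grey outline, each point being 1 array. SPI1 and CEBPA are level over all arrays, CTSG and CSF3R spread widely with the controls inside the spread, and EGR1 is high on replicate 3 and low on replicate 1.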

How the data were processed

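The authors deposited average bead intensities of HumanHT-12 v4 arrays, neither normalized nor background-subtracted, with a detection p-value per probe against the negative control beads, in steps of 1 in 770. A second deposited table held the same intensity times 1 factor per array. Its values were linear and not centred, the method behind the factor and the scanner software are not given in the sources used here, and its log2 was the scale of levels. Of 47323 probes, 30113 had 1 gene symbol in the platform annotation, 8 had several and 17202 none, and 30074 were matched by gene identifier to RefSeq (GRCh38.p14). Probes with 1 symbol entered, 20046 genes in all. Between 12729 and 14152 probes were detected per array at p under 0.01. Intensity on 2 arrays limits the precision. Genes were named by a rule: the markers, the 20 brightest genes, the defining and brightest members of each list, and the widest differences between arrays or probes. Other list members named as examples were chosen after their values were seen. The members and the 37 lists were chosen with earlier results of these data known. No test was made. Alternatives used limma 3.58.1 in R 4.3.3 (neqc and quantile normalization), other detection thresholds and other rules for probes. The scripts, in Python 3.11.15, were checked on simulated data. Expressed genes in the simulation lay well above the detection limit, so the check does not cover calls near it.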

Additional observations from a re-analysis of the deposited data

Results flagged for a closer look

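Probes without a single gene symbol entered none of the counts. Of 17210 such probes, 2439 (14.2%) were detected on both control arrays, against 33.5% of the named probes (10102 of 30113). What they measure was not analysed here.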

How the results depend on the processing

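The number of detected genes stayed within 1.5 times of 7852 under every rule tried: 8671 at a detection p under 0.05, 6941 at a p of 0, 8740 on either array, 7673 on all 3 shEMPTY arrays, 7116 on all 9 arrays, 8272 to 8328 on a single array and 6365 where most probes of a gene had to be detected. The last rule and the median over all probes of a gene were chosen after seeing the data. The median absolute difference between the arrays was 0.161, and it moved to 0.235 before scaling, to 0.227 after neqc and to 0.128 over all genes with a probe. Of the 37 list counts, 8 moved by over 1.5 times at a p under 0.05, 7 on either array, 5 when most probes were required and 4 without shEMPTY replicate 3, which took MHC class II from 5 to 8 and the mast cell, T cell and megakaryocyte lists to 2 each. Requiring most probes took antigen presentation from 16 to 9 of 25 genes, and MHC class I from 11 to 7. Positions depended on the choice of probe. With the median of all named probes, the median percentile went from 67.8 to 60.0 for myeloid, from 36.9 to 39.6 for lymphoid, from 27.5 to 38.0 for erythroid and from 60.8 to 69.7 for progenitor markers. The detected erythroid and megakaryocytic markers each had 1 probe, so their own levels were unchanged and only genes ranked around them moved. With the median of detected probes it was 33.0 for lymphoid and 65.4 for progenitor markers. For single named genes, 107 of 138 percentiles moved by more than the spread between the arrays with all named probes, 87 with detected probes and 2 with neqc. Percentiles of genes with 1 probe shifted, such as ACTA2 from 39.4 to 49.8 with all named probes, though their own levels did not change. No paired analysis was possible because the 2 arrays are of 1 group and no test was made.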
